A study of Homo sapiens with 42 samples.

Results

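The peaks described here are regions called as enriched by m6A immunoprecipitation in control HepG2 cells. They were called in no knockdown of a methyltransferase subunit but were called in a SETD2 knockdown. They were chosen from the control list of peaks by 2 conditions. No peak of the METTL3, METTL14 or WTAP list shared a base with them on the same strand, and at least 1 peak of the list for the first SETD2 short hairpin RNA (shRNA) did. Of 33672 control peaks, 1187 met both conditions, in 1099 of the 14570 genes with a control peak. Over the 7 lists of the series there were 211410 peaks. They are called the SETD2-kept peaks below. The lists of METTL3, METTL14 and WTAP are called the writer lists.

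N6-methyladenosine (m6A) is the methylated form of adenosine that is most common within messenger RNA. It is added in the nucleus by a complex in which METTL3 carries the catalytic site, METTL14 supports RNA binding and WTAP places the complex in the nucleus. In most human cells m6A is found mainly around stop codons and in 3' untranslated regions, where it bears on the stability and translation of the transcript. SETD2 is not a subunit of this complex. It methylates histone H3 along the bodies of transcribed genes.

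HepG2 is a human hepatocellular carcinoma cell line. All cells carried a lentiviral shRNA under puromycin selection: a non-specific control, shMETTL3, shMETTL14, shWTAP or shSETD2#1 in the first set, and shSETD2#2 with a non-specific control of its own, called the second control here. Each of these 7 conditions had 3 input and 3 immunoprecipitated (IP) libraries, 42 in all, and the authors called peaks on the replicates together. Every condition therefore has 1 list, no value has a replicate error, and intervals around percentages are exact Clopper-Pearson 95% intervals that cover counting error only. METTL3, METTL14 and WTAP were each reduced with 1 labelled shRNA, so effects of the target and of that shRNA cannot be told apart. The lists hold no expression values, so the reduction of each target was not checked, and fewer transcripts cannot be told apart from less methylation. Hepatocyte markers were not checked either, since the gene identifiers were used without symbols. Fold enrichment (IP over input) and p-value (IP against input) are the authors' values for each peak.

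The METTL3 list lacked 22.8% of the control peaks, the METTL14 list 29.8% and the WTAP list 28.8%, and 73% were present with SETD2 #1. All 3 writer lists lacked 5262 peaks, or 15.6% of the control list. The SETD2-kept peaks were 22.6% (21.4 to 23.7%) of these, and the other 4075 were absent with SETD2 #1 too. As a share of the control list the SETD2-kept peaks made up 3.53%. These counts follow from the rule and are a description. Peaks kept with any other single knockdown were fewer: 1009 with METTL3, 595 with WTAP and 436 with METTL14. The order of the first 2 depended on the threshold, since with fold enrichment of at least 3 in all lists 792 peaks were kept with SETD2 #1 only and 944 with METTL3 only, in the shorter deposited lists 661 and 761, and with an FDR of at most 1e-05 in all lists 720 and 739. The reverse group, present in all 3 writer lists and absent only with SETD2 #1, held 1560 peaks.

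**Figure D1:**
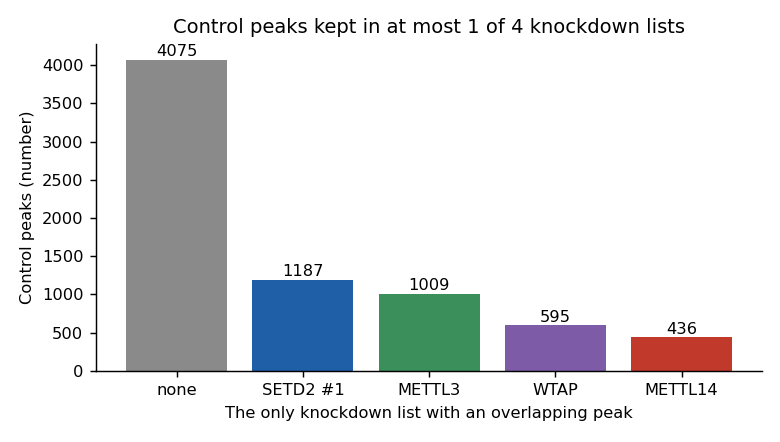
Number of control peaks (vertical axis) that overlapped a peak in none of the 4 first-set knockdown lists or in exactly 1 of them (horizontal axis). The bar for SETD2 #1 only, 1187, is the group described here, and 4075 peaks overlapped none.

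The SETD2-kept peaks were weakly enriched in the control. Their median fold enrichment was 2.71 (quartiles 1.91 to 4.94), against 6.79 over all control peaks, 3.80 for the peaks absent from all 4 first-set knockdowns and 9.21 for those present in all 4. Of them, 335 (28.2%) lay under 2-fold and 326 (27.5%) from 2 to under 3-fold, where the control list as a whole had 7.0% and 13.2%. Only 165 (13.9%) reached 10-fold, against 37.3% of the control list. Their median log10 p was -4.72 and their median width 151 bases, against -11.8 and 269 bases in the list. A smaller share, 20.7% (18.5 to 23.1%), ran over more than 1 exon block, against 38.8%. The shorter deposited list, which is limited to a p-value up to 1e-05 and at least 2-fold enrichment, contained 33.0% of them (30.4 to 35.8%), against 69.3% of all control peaks. Peaks absent from all 4 first-set knockdowns went further in these traits. Their median log10 p was -3.38 and their median width 121 bases. Of those peaks, 16.8% ran over more than 1 block and 17.4% were in the shorter list. Low fold was not a matter of p-value alone. In the third of 5 equal classes of control p-value, with log10 p from -19.2 to -7.73, the 231 SETD2-kept peaks had a median of 2.71-fold and all peaks of that class 5.14-fold. In the second class, 51 had 2.37-fold and all peaks 6.99-fold. Peaks absent from all 4 first-set knockdowns had 2.99-fold in the third class and 2.33-fold in the second. Low fold at a given p-value was therefore not particular to the SETD2-kept peaks.

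**Figure D2:**
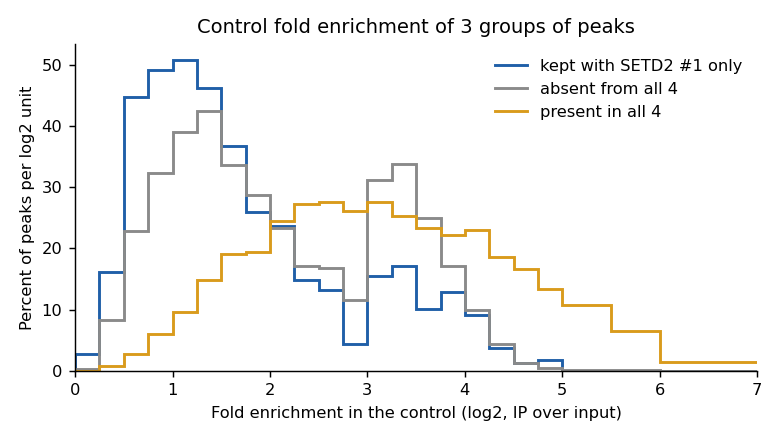
Distribution of control fold enrichment (horizontal axis, log2) as percent of peaks per log2 unit (vertical axis) for SETD2-kept peaks, peaks absent from all 4 first-set knockdowns and peaks present in all 4. The SETD2-kept peaks concentrate near 1 on the log2 axis, with a smaller group above 3.

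Among the peaks absent from all 3 writer lists, a larger share was kept with SETD2 #1 where the control p-value was better. It was 15.0% (13.7 to 16.3%) in the class with the weakest p-values, and 27.4% (25.3 to 29.7%), 48.4% (43.9 to 53.02%) and 62.2% (50.8 to 72.7%) in the next 3 classes. The class with the best p-values held only 3 such peaks, and 1 of them was kept. Presence with SETD2 #1 followed the p-value over the whole control list too, with 29.4%, 54.9%, 83.5% and 97.5% in the same classes. Since few strong peaks were absent from the writer lists at all, 463 of the SETD2-kept peaks still fell in the weakest class and 441 in the one before it. In all, 148 (12.5%) matched or passed the median p-value of the control list.

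Among those 148, the highest fold enrichment was 27.4-fold, for 269 bases on the plus strand of chromosome 4 from 20702073 to 20702341 (build hg19). The control list had no other peak in its gene, ENSG00000163138.18, which had no peak in any writer list. With SETD2 #1 a peak remained there at 2.31-fold, at 5.60-fold in the second control and at 2.07-fold with SETD2 #2. The next, on chromosome 2 from 243030814 to 243037138 (plus strand, 2 blocks, ENSG00000220804.8), had 27.0-fold in the control, 2.95-fold with SETD2 #1, 14.5-fold in the second control and 3.62-fold with SETD2 #2. In both genes the peak was thus present in all 4 lists outside the writers, and each SETD2 knockdown was lower than its own control. A peak on chromosome 3 from 93779707 to 93780126 (minus strand) had 13-fold in the control and 6.03-fold with SETD2 #1, where 61 bases remained of 420. There the second control, at 2.96-fold, lay below SETD2 #2, at 5.87-fold. A 2-block peak on chromosome 15 from 41523389 to 41526378 (plus strand) had a similar fold in the control and with SETD2 #1, 7.07 and 6.82. It had 301 bases in the control and 150 with SETD2 #1, and a log10 p of -13.3 and -7.89. Its gene had no further control peak, and the nearest same-strand peak of any writer list lay 49810 bases away. The second control had 10.7-fold and SETD2 #2 5.31-fold at that place. Of the 10 peaks named for high fold in this way, all 10 overlapped a peak in the second control and in SETD2 #2. Of the 148 they were picked from, 74.3% and 80.4% did. For the 165 SETD2-kept peaks of at least 10-fold at any p-value, the shares were only 51.5% and 30.9%. All 10 named peaks had a lower fold with SETD2 #1 than in the control. That is no finding, since they were picked for a high control fold. Control peaks of at least 10-fold had a median ratio of 0.57 in general.

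Ranked by p-value instead, the leading peaks had low to moderate fold enrichment. The first, on chromosome 12 (56510987 to 56511374, plus strand, 2 blocks), stood out with a log10 p of -190 at 1.32-fold in the control. With SETD2 #1 it had 1.15-fold and a log10 p of -52.1, in the second control 2.81-fold over 706 bases, and with SETD2 #2 2.64-fold over 647 bases. On chromosome 14 from 94848974 to 94849123 (minus strand), one of 6 control peaks of its gene had 1.16-fold in the control and 1.23-fold with SETD2 #1, 1.18-fold in the second control and 1.34-fold with SETD2 #2. This peak was higher with each SETD2 shRNA than in its control, though by little. A peak on chromosome 22 from 39916495 to 39917123 (plus strand) was stronger, with 5.0-fold over 629 bases and a log10 p of -54.1 in the control. SETD2 #1 kept 240 bases of it at 2.60-fold. Neither the second control nor SETD2 #2 had a peak there. Its gene had 2 peaks in every writer list, the nearest 479 bases away in METTL3 and METTL14 and 509 in WTAP. On chromosome 13 from 55014839 to 55015072 (minus strand), fold enrichment was 1.49 in the control and 1.54 with SETD2 #1, and 2.46 and 3.09 in the second control and SETD2 #2. The writer lists had a peak only 58 bases from it, so that peak was kept out of them by a short distance.

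Over all SETD2-kept peaks, fold enrichment with SETD2 #1 was close to the control. The median ratio of the 2 fold enrichments was 0.99 (quartiles 0.77 to 1.23), with 571 peaks higher with SETD2 #1, 606 lower and 10 equal. Over all 24577 control peaks found with SETD2 #1 the median ratio was 0.78 and 70.4% were lower. Much of that gap went with p-value: the median ratio of the SETD2-kept peaks and of all control peaks was 0.75 and 0.72 in the second class, 0.83 and 0.77 in the third, 0.95 and 0.91 in the fourth and 1.17 and 1.18 in the weakest. It also moved with control fold, at 1.07 and 1.11 under 2-fold, 0.95 and 1.0 from 2 to under 3-fold, 0.91 and 0.83 from 3 to under 10-fold, and 0.74 and 0.57 above that. All SETD2-kept peaks had to be called with SETD2 #1, as had the peaks they are set beside. The SETD2 #1 peaks were also narrow, with a median of 121 bases and a median log10 p of -3.78. They were narrower than the control peak for 670 (56.4%) and wider for 330 (27.8%), where all control peaks found with SETD2 #1 had 65.3% narrower and 18.3% wider. In 799 cases (67.3%) the shared bases were at least 50% of both peaks. Only 210 of the matched SETD2 #1 peaks (17.7%) were in the shorter SETD2 #1 list.

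**Figure D3:**
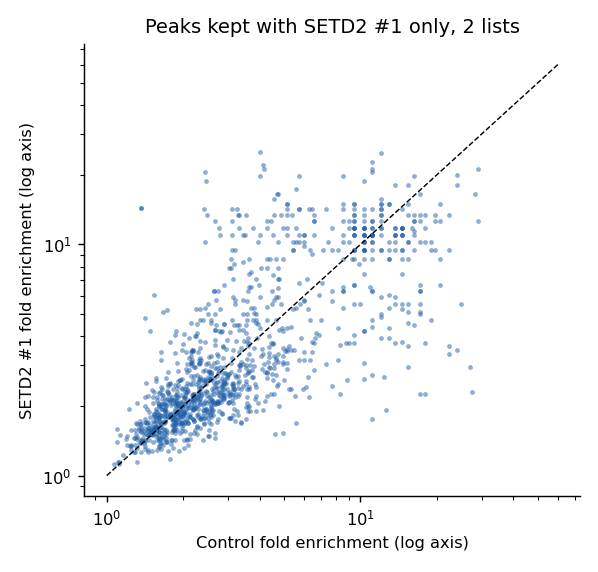
Fold enrichment of the 1187 SETD2-kept peaks in the control (horizontal log axis) and of the overlapping SETD2 #1 peak (vertical log axis), 1 point per peak, with a dashed line of equal values. Points lie on both sides of the line, 571 above and 606 below.

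A few SETD2-kept peaks met far larger peaks with SETD2. On chromosome 6 from 7584944 to 7585063 (plus strand, ENSG00000096696.13), the control peak had 120 bases and 1.41-fold enrichment, and the overlapping SETD2 #1 peak 1408 bases and 4.81-fold. The second control had 121 bases and 1.34-fold, and SETD2 #2 1408 bases at 4.38-fold. The wide SETD2 #1 peak covered 2 control peaks and overlapped a peak in all 3 writer lists, so here the SETD2 list joined a neighbouring peak that the writer lists also hold. A control peak on chromosome 1 (231509845 to 231556011, minus strand, 2 blocks, 91 bases) likewise had 2.49-fold in the control against 13.4-fold over 659 bases with SETD2 #1, and 2.79-fold in the second control against 6.23-fold over 628 bases with SETD2 #2. Its SETD2 #1 peak also covered 2 control peaks and overlapped all 3 writer lists. Both places were named for the best SETD2 #1 p-values among peaks present in both lists of the other set. A strong SETD2 #1 peak and presence in the other set were thus given by the choice and are no finding. The SETD2 #1 peak also overlapped another control peak for 115 SETD2-kept peaks (9.69%), and it overlapped a writer peak for 45 (3.79%). Without those 45, a peak on chromosome 5 from 177482870 to 177483106 (plus strand, ENSG00000218227.3) had the highest ratio among the better supported ones, with 1.64-fold in the control and 3.41-fold with SETD2 #1. In the other set it had 1.37-fold in the second control and 1.63-fold with SETD2 #2.

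The second control and SETD2 #2 were not used to choose the peaks and give a separate reading. Of the SETD2-kept peaks, 699 (58.9%, 56.0 to 61.7%) overlapped a second control peak, against 71.4% of all control peaks. With SETD2 #2, 680 (57.3%, 54.4 to 60.1%) overlapped a peak, against 65.6% of all. Both lists had a peak for 555 (46.8%), against 60.6% of all, and neither for 363 (30.6%), against 23.5% of all. The peaks absent from all 4 first-set knockdowns were found far less often, 34.4% (32.9 to 35.8%) in the second control and 29.03% (27.6 to 30.5%) with SETD2 #2. Peaks kept with METTL3 only stood between, at 48.0% (44.9 to 51.1%) and 42.0% (39.0 to 45.1%). For those kept with METTL14 only the shares were 39.5% and 27.8%, and with WTAP only 36.1% and 21.7%. All 3 of these groups were chosen by presence in a single knockdown, as the SETD2-kept peaks were, and their intervals did not reach the SETD2-kept shares. As peaks of a gene are not independent, and each list is a single measurement, these intervals are no test between conditions.

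Control p-value moved with these shares, so they were also read within its classes. In the weakest class 40.2% (35.7 to 44.8%) of SETD2-kept peaks had a SETD2 #2 peak, against 21.3% (19.7 to 22.9%) of those absent from all 4 and 24.3% of all control peaks. In the fourth class the values were 62.4% (57.7 to 66.9%), 39.5% (36.7 to 42.4%) and 45.6%. In the third they were 75.3% (69.2 to 80.7%), 57.7% (51.3 to 64.0%) and 71.2%. In the second class, with 51 SETD2-kept peaks, they were 86.3% (73.7 to 94.3%), 64.5% (45.4 to 80.8%) and 89.0%, so there the SETD2-kept peaks did not lie above all control peaks. The second control gave 47.7%, 27.8% and 32.5% in the weakest class and 61.7%, 44.9% and 56.3% in the fourth. There, in the third class, the SETD2-kept peaks, at 71.9%, lay above those absent from all 4, at 53.7%, and below all control peaks, at 77.8%, and in the second class their 76.5% lay below the 91.8% of all control peaks. With the compared groups reweighted to the same mix of p-value and fold classes, the SETD2 #2 share was 39.7% for the peaks absent from all 4, 45.5% for METTL3 only, 38.7% for METTL14 only, 28.3% for WTAP only and 46.9% for all control peaks, all below the 57.3% of the SETD2-kept peaks.

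**Figure D4:**
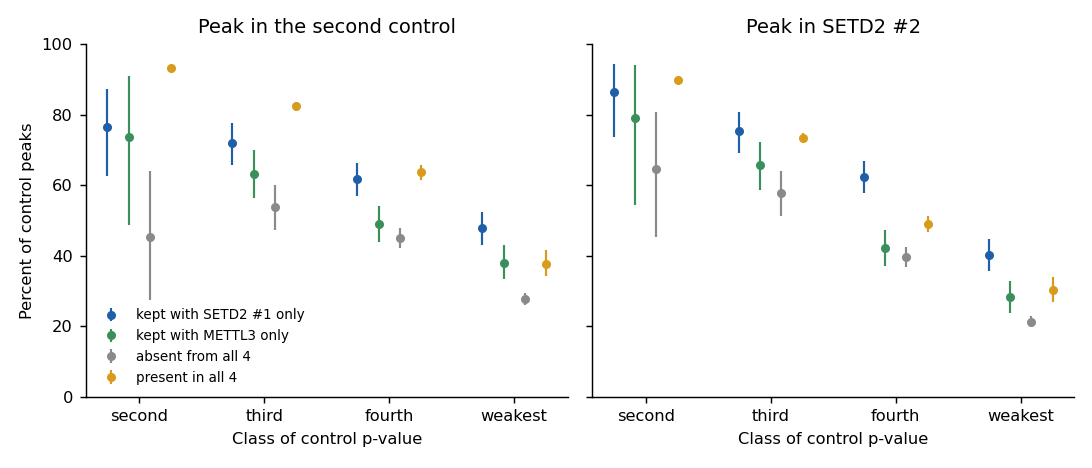
Percent of control peaks (vertical axis) with an overlapping peak in the second control (left) and in SETD2 #2 (right), by class of control p-value, for 4 groups of peaks. Bars are exact 95% intervals, and SETD2-kept peaks lie above the peaks absent from all 4 in each class shown, with intervals apart in the third, the fourth and the weakest.

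Whether a peak of the second control stayed with SETD2 #2 can be asked within that set alone. For 699 SETD2-kept peaks with a second control peak, the latter was present with SETD2 #2 in 556 cases (79.5%, 76.4 to 82.5%), against 84.7% over all control peaks. The lower share went with weak p-values. Within classes it was 67.0% (60.3 to 73.1%) against 54.2% (52.1 to 56.3%) of all control peaks in the weakest, 79.4% (74.1 to 84.1%) against 65.7% (64.2 to 67.2%) in the fourth, and 91.6% (86.3 to 95.3%) against 82.6% (81.5 to 83.6%) in the third. Reweighted by p-value and fold together, all control peaks had 74.7% and those present in all 4 first-set knockdowns 76.6%. Where both lists of that set had an overlapping peak, the median ratio of SETD2 #2 to second control fold enrichment was 1.10 over 555 SETD2-kept peaks, and 0.90 over the 20394 control peaks. It was 1.01 for peaks absent from all 4 first-set knockdowns and 1.03 for METTL3 only. For METTL14 only it was 0.99 and for WTAP only 0.82. These ratios were not read within classes of p-value. For the 555 SETD2-kept peaks, the fold was above its own control with both shRNAs in 176 and below it with both in 121. Among the 18394 control peaks with a peak in the same lists, these counts were 2165 and 8682. Across the same peaks, Pearson's r between the 2 log2 ratios was 0.22 and Spearman's rho 0.13, and over the 18394 they were 0.26 and 0.24. The counts and correlations were not read within classes of p-value either, although the SETD2 #1 ratio moved with p-value. They describe peaks of the same 4 lists and are no test.

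Fold enrichment in the control moved with presence in SETD2 #2 as well. SETD2-kept peaks under 2-fold were found there in 73.7% of cases (68.7 to 78.4%), against 60.8% of all control peaks of that strength. From 2 to under 3-fold the shares were 62.0% (56.5 to 67.3%) against 56.6%, which lies within that interval. From 3-fold on the SETD2-kept peaks lay below: 49.9% (44.6 to 55.1%) of 361 against 65.6% up to 10-fold, and 30.9% (23.96 to 38.6%) of 165 against 69.7% at 10-fold and above. The 165 peaks of the latter range had a median log10 p of -3.62, while all control peaks of that range had -23.9. From 3 to under 10-fold these medians were -4.89 and -13.15.

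For 721 SETD2-kept peaks (60.7%, 57.9 to 63.5%) the gene had a peak elsewhere in all 3 writer lists, and for 287 (24.2%, 21.8 to 26.7%) it had none in any of them. Over the whole control list these shares were 85.9% and 4.08%. Control peaks present in all 4 first-set knockdowns, which overlap writer peaks, had 99.8% and 0.02%. The contrast with the whole list is therefore not separate from the rule, which leaves out peaks with such an overlap. The peaks absent from all 4 first-set knockdowns, which also lack it, were similar to the SETD2-kept peaks, with 58.1% (56.6 to 59.7%) and 26.3% (24.96 to 27.7%). A writer peak lay within 500 bases for 357 (30.1%) and within 100 bases for 74 (6.23%), and the median distance to the nearest was 3793 bases. Peaks absent from all 4 were alike in this, with 30.9%, 6.97% and 2978 bases. Limited to the 721 peaks whose gene had a peak in every writer list, the share found with SETD2 #2 was 58.1% and in the second control 57.8%. In 308 of the 1099 genes (28.0%), every control peak was absent from all writer lists. The rule fixes this where the SETD2-kept peak is the only control peak of its gene. That held for 246 of the 1187 SETD2-kept peaks (20.7%). Over all 1099 genes there were 2284 other control peaks, of which 1222 (53.5%) were present in all 4 first-set knockdowns, against 56.9% of the control list.

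Most genes held a single SETD2-kept peak, 76 held 2 and 6 held 3. In the gene on chromosome 15 with peaks from 30001014 to 30011275 (minus strand), 3 of 6 control peaks were kept with SETD2 #1 only, with 1.43, 2.27 and 2.52-fold in the control and 1.68, 2.18 and 1.49-fold with SETD2 #1. All 3 were present with SETD2 #2, the first at 2.02-fold and the next at 1.83-fold, and only the last was present in the second control. METTL14 and WTAP had no peak in this gene, and METTL3 had 2. In a gene on chromosome 1 with 11 control peaks, the 3 between 214815023 and 214816102 (plus strand) had 1.64, 1.97 and 2.02-fold in the control and 1.69, 2.08 and 4.08-fold with SETD2 #1. There METTL3 had 7 peaks and METTL14 and WTAP 5 each, the closest 420 bases away. Peaks of a gene share its transcripts, and 75 SETD2-kept peaks also shared bases with another on the same strand, so they are not independent. Some, as on chromosome 1, overlapped another SETD2-kept peak on the opposite strand. Such pairs were not counted, so the 75 do not cover all overlap within the group.

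Along the transcript, SETD2-kept peaks leaned to the 3' side. Of the 941 in genes with several control peaks, 330 (35.1%, 32.0 to 38.2%) were the 3'-most and 219 (23.3%, 20.6 to 26.1%) the 5'-most, where all such control peaks had 31.0% each. Peaks kept with METTL14 only leaned the other way, with 18.8% (14.8 to 23.3%) 3'-most and 38.4% (33.3 to 43.8%) 5'-most, as did those kept with WTAP only, with 17.5% (14.2 to 21.3%) and 45.0% (40.5 to 49.6%). Peaks kept with METTL3 only were even, at 33.8% and 33.2%. By gene, 309 had the 3'-most and not the 5'-most peak among the SETD2-kept, 198 the reverse and 21 both. Strength of the peak moved with place: reweighted to the same classes of p-value and fold, all control peaks had 31.7% 3'-most and 25.8% 5'-most, the METTL14 group 21.7% and 30.2%, and the WTAP group 25.6% and 27.8%, which is nearly even. Peaks absent from all 4 first-set knockdowns then had 35.3% and those kept with METTL3 only 37.6%, no less than the SETD2-kept peaks, so the 3' lean did not set them apart from these.

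**Figure D5:**
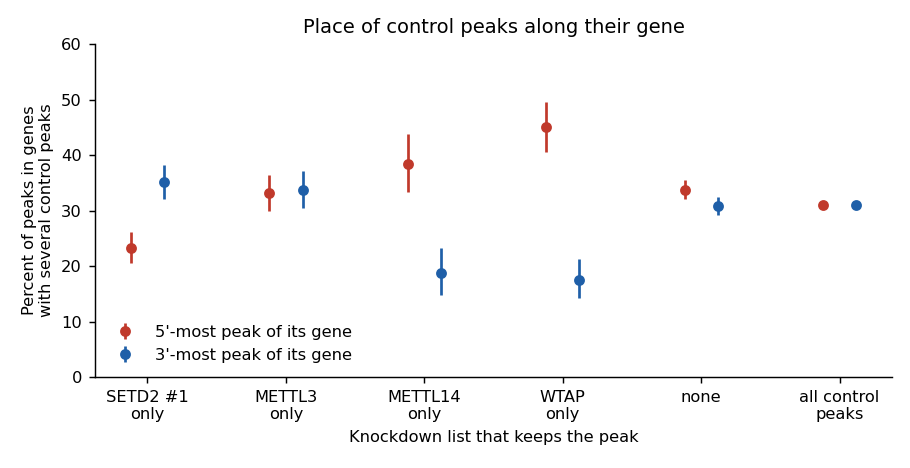
Percent of peaks (vertical axis) that were the 5'-most or the 3'-most control peak of their gene, among peaks in genes with several, by the single first-set knockdown that kept them (horizontal axis), for peaks kept by none and for all control peaks. Bars are exact 95% intervals; the SETD2-kept peaks have more 3'-most than 5'-most peaks, and those of METTL14 and WTAP fewer.

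Chromosomes differed in how many of their control peaks were SETD2-kept. Chromosome 13 had the highest share, 35 of 435 (8.05%, 5.67 to 11.01%), and chromosome 22 the lowest, 23 of 1137 (2.02%, 1.29 to 3.02%), against 3.53% over the list. Chromosome 13 also had more peaks absent from all 3 writer lists, 26.2% against 15.6%, and 30.7% of those were kept with SETD2 #1, against 22.6%. Chromosome 19, with 3035 control peaks, had 2.31% (1.80 to 2.91%).

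The rule turns on 1 shared base. Of the SETD2-kept peaks, 27 shared under 10 bases with their SETD2 #1 peak, and 24 control peaks stayed outside the group through a writer overlap of under 10 bases. Just inside were a peak on chromosome 19 from 6212160 to 6212250 and one on chromosome 1 from 119725643 to 119725703, each with 1 base shared with SETD2 #1. Just outside were peaks on chromosome 1 from 662820 to 663090 and from 36856988 to 36857198, each with 1 base shared with a writer peak.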

How the data were processed

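Lists of m6A peaks from 42 HepG2 libraries (7 conditions, each with 3 input and 3 IP libraries) were used as deposited. Tools listed in the submitters' processing notes are FastQC 0.11.5 and TopHat2 2.1.1, with build hg19. The deposited names, per the labels, give exomePeak as the caller and the 3 replicates as its joint input; its version is not given in the sources used here. Per the file headers, the deposited values are a p-value of IP against input, its log10 and the log10 FDR (scores with no fixed range), and fold enrichment, a linear ratio. Reads per library are unknown, so the precision that depth gives is unknown.

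Repeated entries for an identical set of blocks were merged (11 to 21 in each list). Peaks were matched with bedtools 2.31.1 by 1 shared block base on the same strand, and the match with the most shared bases supplied fold, p-value and width. Shares and medians were computed in Python 3.11.15, pandas 2.3.3 and scipy 1.17.1, and overlap calls were tested on simulated data. With 1 list per condition there is no test between conditions. Named peaks were the 10 with the highest control fold among those that match or pass the median control p-value, the 10 with the best p-value, the 10 with the best SETD2 #1 p-value present in both lists of the other set, the 5 genes with the most such peaks, and the 5 highest and 5 lowest ratios of SETD2 #1 to control fold; only some are printed. The peaks, lists and rules were chosen with earlier results of these data known. Gene identifiers are as deposited: of 14570, the reference table paired 0 with a symbol. The planned gene lists and marker check were therefore not run. No hg19 genome or annotation was used here, so transcript regions and motifs were not searched and no sequence is printed.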

Additional observations from a re-analysis of the deposited data

How the results depend on the processing

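No paired analysis was possible because each condition has 1 list made from its 3 replicates, which also means that none could be dropped. The number of SETD2-kept peaks was 720 with an FDR of at most 1e-05 in all 7 lists, 661 in the shorter deposited lists, 148 among control peaks at or better than the median p-value and 721 in genes with a peak in all 3 writer lists. Their share of the peaks absent from all writer lists was 19.7% when 50% of both peaks had to be shared, 18.9% at fold enrichment of at least 3, 20.1% in the shorter lists and 60.4% at or better than the median p-value. Presence in the second control was 44.2%, 44.4%, 54.6% and 74.3% under these 4 settings. Presence in SETD2 #2 was 42.7%, 41.4%, 52.0% and 80.4%, and 61.0% with no writer peak within 500 bases. The median ratio of SETD2 #1 to control fold was 0.93, 0.95, 0.88 and 0.77 under the same 4 settings and 0.91 with the FDR limit. The median ratio of widths was 0.86 with 50% shared, 0.86 in the shorter lists, 0.67 at or better than the median p-value, 0.86 with the FDR limit and 0.87 with whole spans. The other 27 of 54 values stayed within 1.5 times for the count and within the 95% interval for the rest. Under each of the 9 alternatives, the SETD2-kept peaks were found in SETD2 #2 and in the second control more often than those kept with METTL3, METTL14 or WTAP only or absent from all 4. The restriction to genes with a peak in every writer list, the removal of SETD2 #1 peaks that overlap a writer peak and the reweighting were chosen after seeing the data. Setting these shares beside peaks kept with METTL3, METTL14 or WTAP only was not in the plan either. The same holds for the ranges of fold, the counts over both SETD2 shRNAs and the shares by chromosome. Where values differed, the cause was not tested.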

Other observations

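Of the SETD2-kept peaks, 25 (2.11%, 95% interval 1.37 to 3.09%) overlapped a writer peak on the opposite strand, against 10.3% of all control peaks and 1.64% of those absent from all 4 first-set knockdowns. The groups with low shares were both chosen for having no writer peak on the same strand. Peaks present in all 4 had 13.3% and those kept with METTL3 only 9.42%. The contrast with all control peaks is therefore not separate from the rule.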
